A study of Bos taurus with 6 samples.

Results

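Mucins and the proteins secreted with them form the chemical surface of a mucosa, and the RNA of 10 of these genes was followed here in primary bovine vaginal epithelial cells (BVECs). The genes were MUC1, MUC4, MUC16, WFDC2, SLPI, LCN2, PIGR, LTF, C3 and CLU, each read from the row that carries its symbol in a table of 18014 features. A row with that symbol was found for 6 of the 10, namely MUC1, WFDC2, SLPI, LCN2, PIGR and C3. LTF and CLU were found by their descriptions only, an addition made after the data had been seen. The row described as lactotransferrin is listed under the older symbol LF, and the row described as clusterin carries an Ensembl identifier in place of a symbol. No row was named or described as MUC4 or MUC16, so these 2 mucins were not analysed here.

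Membrane mucins are long, heavily O-glycosylated proteins that stand out from the apical surface of an epithelium, where they hold off microbes and also signal into the cell. Secreted proteins work in the fluid above them. Some inhibit proteases, some bind iron or the iron carriers of bacteria, and others deliver antibody or complement. In the vagina these layers meet lactobacilli as well as pathogens.

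Treated cells were 3 samples of BVECs that received the Lactobacillus strain SQ0048, a bovine vaginal isolate, at 1000000000 CFU/ml for 4 h. Control cells were 3 samples of BVECs labelled untreated, from the same kind of primary culture. By the study's methods they received medium in place of the bacterial suspension and were otherwise handled alike. Each condition had biological replicates by the study's methods, but neither labels nor methods state whether these were separate cultures or animals, so part of the spread that the p-values measure may be technical. Poly(A) RNA was sequenced, and each value is in FPKM, which divides fragments by transcript length and library size, so levels of different genes can be set side by side.

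FPKM summed to 372034 to 378772 in the treated libraries and 343933 to 361055 in the control libraries, so every treated sum was above every control sum. These sums do not measure library size, and the depth behind a value is unknown because no counts were used. Epithelial markers were high in all 6 libraries. Summed over 9 epithelial genes they reached 6029 to 6365 FPKM in treated cells and 5179 to 5610 FPKM in control cells, with KRT18 and KRT8 called higher in treated cells, though not under quantile normalization. Of 12 markers of stratified squamous epithelium, the kind that lines the vagina, 7 had a row. They summed to 25.4 to 27.1 FPKM in treated cells and 19.8 to 30.0 FPKM in control cells. KRT5 was the most abundant, at 16.65 to 19.16 FPKM in treated cells and 14.26 to 22.17 FPKM in control cells. KRT15 was at 5.2 to 5.96 FPKM in treated cells and 3.71 to 5.6 FPKM in control cells. CNFN was at 1.55 to 2.71 FPKM in treated cells and 0.7 to 1.34 FPKM in control cells. None of these 3 was called. KRT14, TP63, DSG3 and SPRR3 averaged under 0.5 FPKM, and KRT13, KRT4, KRT6A, IVL and SPRR1A had no row. AGR2, a secretory cell protein, stood at 386 to 414 FPKM in treated cells and 410 to 425 FPKM in control cells. PAX8, from the same list of glandular or ciliated markers, stood at 27.27 to 36.95 FPKM in treated cells and 31.31 to 45.22 FPKM in control cells. Neither was called. FOXJ1, MUC5B, SPDEF, TFF3 and SCGB1A1 of that list were under 0.5 FPKM.

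The 8 measured genes spanned a wide range of levels. CLU ranked 118 and WFDC2 ranked 161 of the 18014 features by mean FPKM. MUC1 ranked 1115 and C3 ranked 1618. LTF and PIGR lay near the middle of the table, at ranks 8592 and 9186, and SLPI and LCN2 near its low end, at ranks 12899 and 14093. CLU and WFDC2 together held 91.7% of the summed FPKM of the 8 genes in treated cells and 89.0% in control cells. That sum was 1035 ± 29.2 FPKM in treated cells and 840 ± 33.5 FPKM in control cells (SD, n = 3 each), or 0.276% and 0.239% of all FPKM of the library in treated and control cells.

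**Figure D1:**
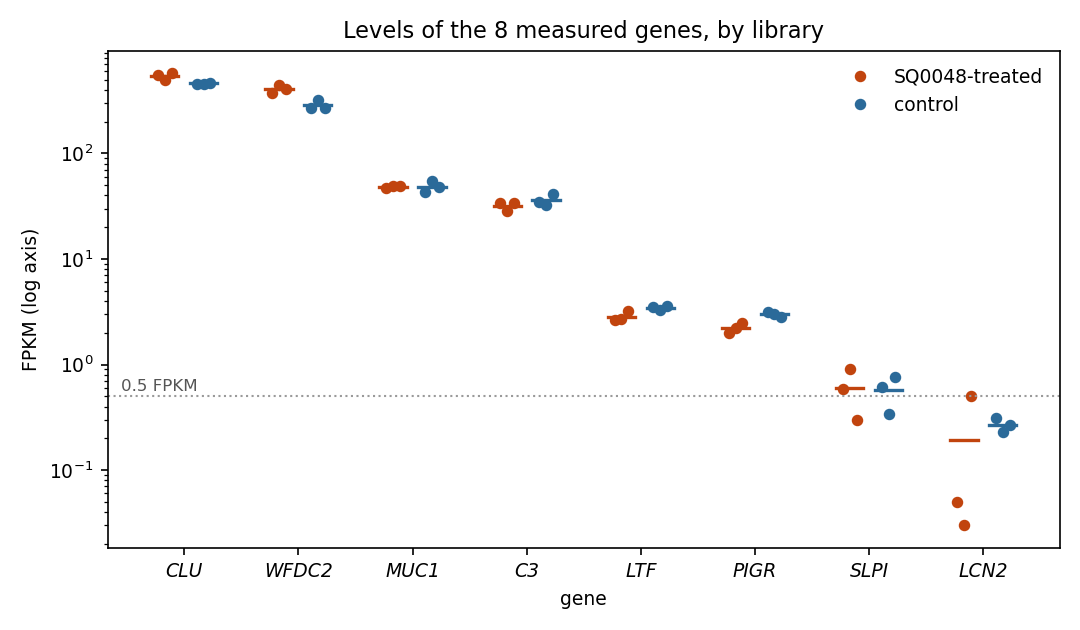
FPKM of each measured gene on a log axis, with 1 point per library, treated cells left of control cells for each gene and a bar at the group mean. The treated and control points separate for CLU, WFDC2, LTF and PIGR and overlap for MUC1, C3, SLPI and LCN2, and the dotted line marks 0.5 FPKM.

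Between the groups, WFDC2 rose and PIGR fell in treated cells, and MUC1, SLPI, LTF, C3 and CLU did not pass the test. The test was limma on log2(FPKM + 0.1) over the 13144 features that averaged 0.5 FPKM or more, called at a Benjamini-Hochberg adjusted p under 0.05. Of the 5 tested genes read by symbol, 1 was called higher and 1 lower, and the 2 genes read by description added no call. Over all features tested 24.4% were called, 8.59% higher and 15.8% lower in treated cells. After rescaling to TPM the lower calls made up 77.7% of all calls, and with median-of-ratios size factors 51.8%, against 64.7% here. None of the 7 genes reached a fold change of 2, which 5.52% of all features did with an unadjusted p under 0.05. The groups did not overlap for 4 of the 7 tested genes, 2 of them higher and 2 lower in treated cells, where over all features tested 45.7% had groups that did not overlap, 17.4% higher and 28.3% lower. The median log2 fold change was -0.00 over the 7 genes and -0.08 over all features tested.

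**Figure D2:**
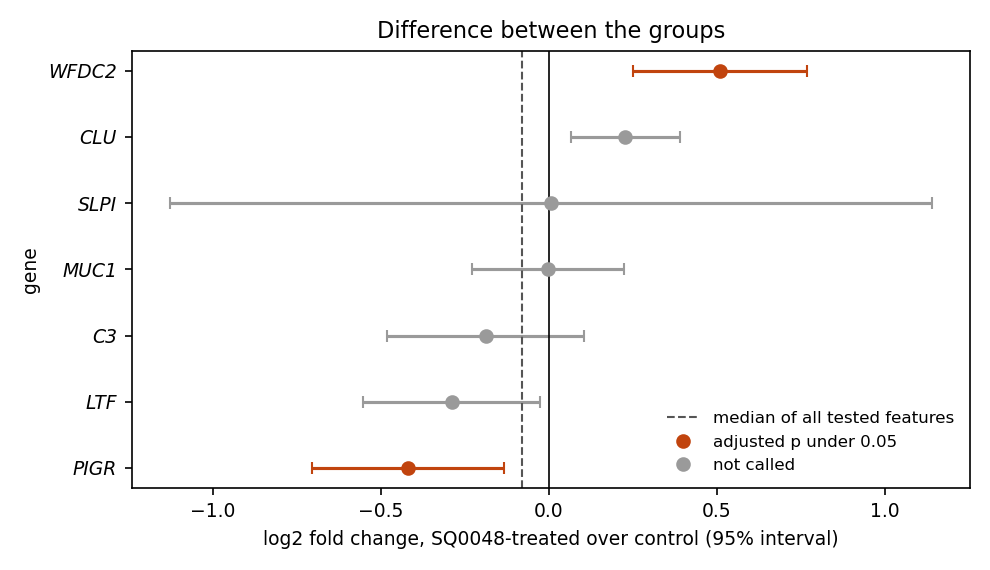
Log2 fold change of each tested gene, treated over control, with its 95% interval from limma, and orange marking an adjusted p under 0.05. WFDC2 at 0.51 and PIGR at -0.42 are the called genes, and the interval of SLPI runs over both signs, to -1.13 and 1.14.

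MUC1 (listed as MSTRG.10663) is a membrane mucin with a cytoplasmic tail that signals in epithelial cells. Its level was 47.33, 48.97 and 48.67 FPKM in treated cells, against 43.49, 54.67 and 47.67 FPKM in control cells. The treated values lay inside the range of the control values. The means were 48.3 ± 0.873 FPKM in treated cells and 48.6 ± 5.65 FPKM in control cells (SD, n = 3 each). The log2 fold change was -0.00 with a 95% interval of -0.23 to 0.22 (limma, adjusted p = 0.989), and with median-of-ratios size factors it was 0.08. A difference of either sign inside that interval was not excluded.

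WFDC2 (MSTRG.2808), a small secreted protein with WAP domains that is abundant in genital tract and airway epithelia, gave the largest log2 fold change of the tested genes, though after rescaling to TPM that of PIGR was larger in size (-0.52, against 0.42 for WFDC2). It stood at 373.97, 447.46 and 404.32 FPKM in treated cells, against 267.36, 323.84 and 270.07 FPKM in control cells. All treated libraries were above all control libraries. The means were 409 ± 36.9 FPKM in treated cells and 287 ± 31.9 FPKM in control cells (SD, n = 3 each), a ratio of 1.42. The log2 fold change was 0.51 (SE 0.10, limma, adjusted p = 0.0213). It was positive in 16 of 16 settings and called in 11 of them, with adjusted p between 0.0139 and 0.0707. Quantile normalization gave 0.36 without a call, and leaving out 1 library gave 0.44 to 0.60, with the call lost without treated replicate 2 or 3 or control replicate 1 or 3.

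SLPI (ENSBTAG00000004148), the secretory leukocyte protease inhibitor, is the other WAP-domain protein of the set and blocks proteases of neutrophils. It was measured at 0.58, 0.90 and 0.30 FPKM in treated cells, against 0.61, 0.34 and 0.76 FPKM in control cells. Its mean over the 6 libraries, 0.582 FPKM, was just above the 0.5 FPKM that the test required. The groups overlapped, and the log2 fold change of 0.01 had a 95% interval of -1.13 to 1.14 (limma, adjusted p = 0.995). A doubling and a halving both lay inside that interval, so neither was excluded.

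LCN2 (ENSBTAG00000014149), lipocalin 2, binds the siderophores with which many bacteria take up iron. It was listed at 0.05, 0.03 and 0.50 FPKM in treated cells, against 0.31, 0.23 and 0.27 FPKM in control cells. Its mean of 0.232 FPKM was below the limit for testing. The treated libraries held both the highest and the lowest values of the 6. Without a filter on low values the log2 fold change was -0.70 (limma, adjusted p = 0.507).

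LTF (MSTRG.8039), lactotransferrin, binds free iron and also damages bacterial membranes. The row listed as LF was at 2.62, 2.68 and 3.19 FPKM in treated cells, against 3.54, 3.31 and 3.55 FPKM in control cells. The treated libraries were all below the control libraries. The means were 2.83 ± 0.313 FPKM in treated cells and 3.47 ± 0.136 FPKM in control cells (SD, n = 3 each). The log2 fold change of -0.29 (SE 0.11) did not pass the adjustment (limma, unadjusted p = 0.0367, adjusted p = 0.104), and it was negative in 15 of 15 settings with adjusted p between 0.0641 and 0.441.

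PIGR (MSTRG.3694), the polymeric immunoglobulin receptor, carries IgA and IgM across an epithelium and is cut off into the lumen as secretory component. It was at 2.0, 2.22 and 2.49 FPKM in treated cells, against 3.18, 3.04 and 2.82 FPKM in control cells. The groups did not overlap. The means were 2.24 ± 0.245 FPKM in treated cells and 3.01 ± 0.181 FPKM in control cells (SD, n = 3 each), and the log2 fold change was -0.42 (SE 0.12, limma, adjusted p = 0.0497). The fold change was negative in 15 of 15 settings, but the call was kept in 3 of them, adjusted p ran between 0.0307 and 0.193, and leaving out any 1 of the 6 libraries ended it, with fold changes of -0.49 to -0.34.

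C3 (MSTRG.13483) is the protein on which the pathways of complement activation meet. It was at 33.62, 28.37 and 33.83 FPKM in treated cells, against 34.89, 32.82 and 41.59 FPKM in control cells. The groups overlapped, with means of 31.9 ± 3.09 FPKM in treated cells and 36.4 ± 4.58 FPKM in control cells (SD, n = 3 each). The log2 fold change was -0.19 with a 95% interval of -0.48 to 0.11 (limma, adjusted p = 0.304). In RefSeq, on the later assembly ARS-UCD2.0, a long noncoding RNA gene overlaps C3, and no source used here gives the strand setting of the authors' quantification, so fragments of the 2 genes may not be separated.

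CLU (MSTRG.14055), clusterin, is an extracellular chaperone that also inhibits the membrane attack complex of complement. It was at 551.2, 495.27 and 574.34 FPKM in treated cells, against 455.2, 456.92 and 469.01 FPKM in control cells. All treated libraries were above all control libraries, and they were also more spread, with means of 540 ± 40.7 FPKM in treated cells and 460 ± 7.53 FPKM in control cells (SD, n = 3 each). The log2 fold change of 0.23 (SE 0.07) stood just outside the call (limma, unadjusted p = 0.0140, adjusted p = 0.0550). It was called in 3 of 16 settings, among them size factors at 0.31 and the one without treated replicate 2, while quantile normalization gave -0.01, and adjusted p ran between 0.0206 and 0.937.

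**Figure D3:**
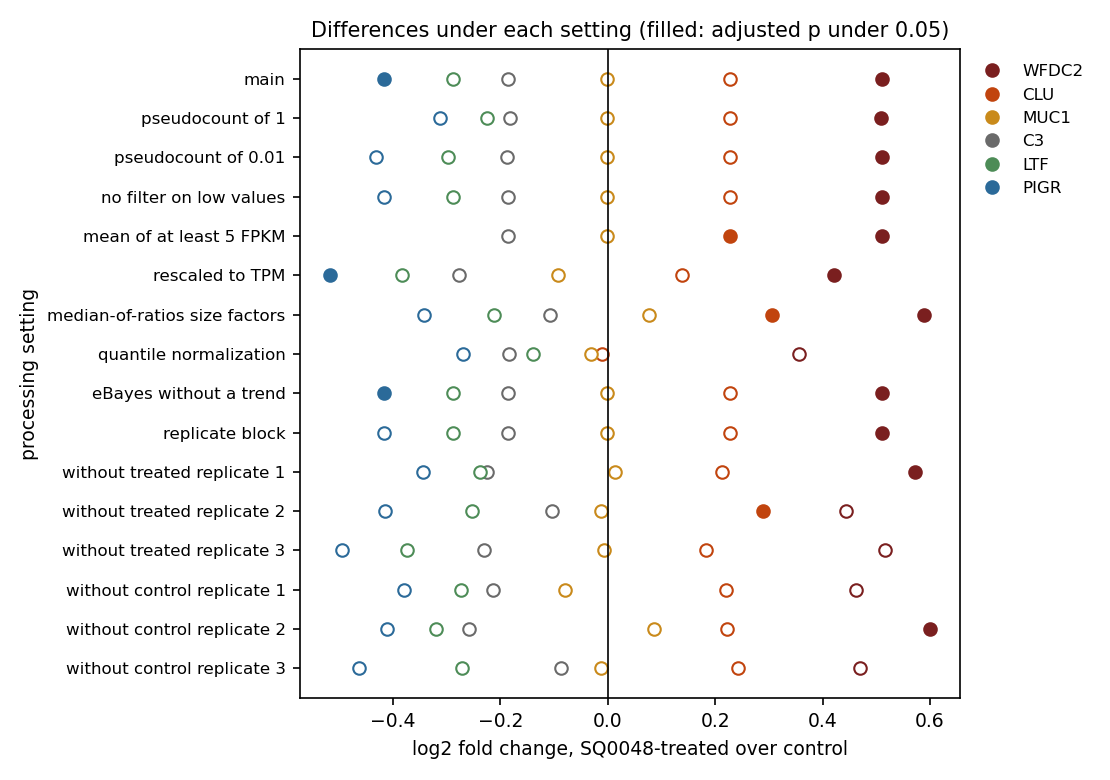
Log2 fold change, treated over control, of the 6 genes that averaged 1 FPKM or more under each processing setting, with filled points at an adjusted p under 0.05. WFDC2 lies between 0.36 and 0.60 in every setting, PIGR between -0.52 and -0.27, and CLU meets the zero line under quantile normalization.

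Ratios between the genes within a library do not depend on a scale factor of that library. The level of WFDC2 over that of MUC1 was 7.90, 9.14 and 8.31 in treated cells, against 6.15, 5.92 and 5.67 in control cells. CLU over C3 was 16.4, 17.5 and 17.0 in treated cells, against 13.0, 13.9 and 11.3 in control cells. WFDC2 over PIGR, the genes called in opposite directions, was 187, 202 and 162 in treated cells, against 84.1, 107 and 95.8 in control cells. That pair was picked from these calls, and its ratio had to separate. WFDC2 alone was higher and PIGR alone lower in treated cells without overlap, so the ratio adds no result. In each of these ratios the treated libraries were all above the control libraries. CLU over MUC1, WFDC2 over CLU and PIGR over LTF overlapped between the groups. The share of such ratios without overlap was not computed over all features, but 45.7% of single features tested had groups that did not overlap.

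The keratins KRT18 and KRT8 were called higher in treated cells, so the levels were also set against them. KRT18, a keratin of simple epithelia, rose to 1581 ± 54.9 FPKM in treated cells, against 1273 ± 42.6 FPKM in control cells (SD, n = 3 each; log2 fold change 0.31, limma, adjusted p = 0.0103). With quantile normalization neither keratin was called, at log2 fold changes of 0.075 for KRT18 (limma, adjusted p = 0.324) and 0.097 for KRT8 (limma, adjusted p = 0.2). As a percentage of KRT18, WFDC2 was at 23.1, 29.5 and 25.1% in treated cells, against 20.7, 24.9 and 22.1% in control cells, so that the groups overlapped on this scale. CLU was at 34.1, 32.6 and 35.7% of KRT18 in treated cells, against 35.2, 35.1 and 38.3% in control cells, also overlapping. MUC1 was at 2.93, 3.23 and 3.02% of KRT18 in treated cells, against 3.36, 4.2 and 3.89% in control cells, with every treated library below every control library. C3, LTF and PIGR were likewise lower in treated cells without overlap per KRT18, and the same held per KRT8. Over all 13144 features tested, 52.7% were lower without overlap per KRT18 and 53.9% per KRT8, so this placement is common to much of the table. Whether the keratins have a part in these differences was not tested, and fewer cells of a type cannot be told apart from less RNA per cell in such bulk samples. Among markers of other cell types, 10 leukocyte genes summed to 21.9 to 26.1 FPKM in treated cells and 18.2 to 21.4 FPKM in control cells, of which AIF1 gave 86.0 to 90.8% in treated cells and 83.7 to 88.2% in control cells. AIF1 was not called (log2 fold change 0.25, limma, adjusted p = 0.194), and PTPRC, ITGAM, MPO and TYROBP had no row. CD14 was at 1.06 to 1.82 FPKM in treated cells and 1.55 to 2.1 FPKM in control cells, and CD68 at 0.54 to 1.0 FPKM in treated cells and 0.39 to 0.54 FPKM in control cells, with neither called, CD79A at 0 and CSF3R and ELANE under 0.5 FPKM. Fibroblast markers, 10 in all, summed to 55.1 to 56.2 FPKM in treated cells and 56.7 to 61.7 FPKM in control cells, most of it COL3A1, with DCN and PDGFRA under 0.5 FPKM. Among them COL1A1 and COL1A2 were called higher in treated cells (log2 fold changes 0.53 and 0.61) and POSTN lower (-0.78). The calls of COL1A1 and COL1A2 were lost without treated replicate 1 or 3 or control replicate 1, and that of COL1A1 also without control replicate 2 or 3. The 4 endothelial markers with a row summed to 2.42 to 2.51 FPKM in treated cells and 1.56 to 1.61 FPKM in control cells, nearly all of it VWF, which was called higher in treated cells (log2 fold change 0.64, limma, adjusted p = 0.0089), and PECAM1 was under 0.5 FPKM. Their part in the differences was not tested.

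The 8 genes share annotations that their choice by name did not use. In the GO terms of the table, all but WFDC2 carry "extracellular space", and 6 carry "extracellular exosome". Of the 429 tested features with the term "extracellular space", 67 were called higher and 48 lower in treated cells, or 26.8% against 24.4% of all features, with a median log2 fold change of 0.04.

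Genes that act around these 8 were described from 9 lists chosen by function, with earlier results of these data known. Their shares of calls, here and below, are therefore descriptive and no independent result. The lists hold 241 symbols, of which 153 had a row and 102 were tested. List genes were looked up by symbol or RefSeq accession and not by description, and 4057 features carried no symbol. A missing row is therefore no measure of a low level. In treated cells 11 of the 102 were called higher and 17 lower, and 74 were not called. These are 10.8% and 16.7% of the tested list genes, near the 8.59% and 15.8% of all features. With median-of-ratios size factors the counts became 17 higher and 11 lower. Their median log2 fold change was -0.05.

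Few other mucins were found by name, which does not show that their RNA was scarce. Of 14 further mucin symbols, only MUC13 and MUC5B had a row. MUC13, a membrane mucin, was at 0.54, 0.51 and 0.81 FPKM in treated cells, against 1.0, 1.17 and 0.84 FPKM in control cells, and was not called, although its unadjusted p was under 0.05 (log2 fold change -0.63, limma, adjusted p = 0.126). MUC5B, a gel-forming mucin, stayed under 0.5 FPKM.

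Of 19 tested enzymes and chaperones of mucin O-glycans, 2 were called higher, 4 lower and 13 not at all, so that 31.6% were called against 24.4% of all features. The lower calls all ended without treated replicate 3 or without control replicate 1. GALNT1 and GALNT7, which start or extend the attachment of GalNAc to the protein, fell. GALNT1 was at 10.33, 21.23 and 18.28 FPKM in treated cells, against 30.59, 30.51 and 33.92 FPKM in control cells (log2 fold change -0.99, limma, adjusted p = 0.0483). GALNT7 was at 8.0 ± 1.1 FPKM in treated cells and 12.8 ± 1.80 FPKM in control cells (SD, n = 3 each), with an adjusted p of 0.0239 from limma. C1GALT1C1, the chaperone of the enzyme that makes the core 1 glycan, fell too (log2 fold change -0.60, limma, adjusted p = 0.0256). ST3GAL1, which caps that glycan with sialic acid, rose to 2.77 ± 0.185 FPKM in treated cells, against 1.59 ± 0.121 FPKM in control cells (SD, n = 3 each; log2 fold change 0.76, limma, adjusted p = 0.0084).

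Of 13 tested partners and sheddases of membrane mucins, 4 were called lower and 0 higher in treated cells by limma, and at an unadjusted p under 0.05 the counts were 7 and 1. The calls were 30.8% lower and 0% higher, against 15.8% and 8.59% of all features tested. EGFR, a receptor that binds MUC1, was at 12.99, 13.55 and 14.18 FPKM in treated cells, against 23.09, 22.79 and 25.06 FPKM in control cells (log2 fold change -0.80, limma, adjusted p = 0.0025). ERBB2, its relative, fell by 0.37 on the log2 scale (limma, adjusted p = 0.0133). CTNNB1, the beta-catenin that meets the MUC1 tail, fell by 0.21, with an adjusted p of 0.0340 from limma that became 0.12 with median-of-ratios size factors. ADAM10, a sheddase, was at 46.4 ± 4.38 FPKM in treated cells and 80.9 ± 6.92 FPKM in control cells (SD, n = 3 each; log2 fold change -0.80, limma, adjusted p = 0.0057).

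WAP and serine protease inhibitors beyond WFDC2 and SLPI had 2 of 9 tested genes called higher and 0 lower by limma, and at an unadjusted p under 0.05 3 and 0. The calls were 22.2% higher and 0% lower, against 8.59% and 15.8% of all features tested. The called genes were SERPINB6, an intracellular serpin, with 103 ± 3.02 FPKM in treated cells and 86.8 ± 1.42 FPKM in control cells (SD, n = 3 each; log2 fold change 0.25, limma, adjusted p = 0.0152), and WFDC3, a further WAP-domain gene, with a log2 fold change of 0.28 (limma, adjusted p = 0.0498). WFDC3 lost its call whichever library was left out. Of 46 epithelial antimicrobial symbols, 16 had a row and 5 were tested, with 0 called by limma and 0 at an unadjusted p under 0.05. Of all features tested, 24.4% were called. S100A12, a calgranulin, was the most abundant, at 20.2 ± 1.32 FPKM in treated cells and 18.7 ± 0.495 FPKM in control cells (SD, n = 3 each; adjusted p = 0.299, limma), and S100A8, a subunit of calprotectin, was at 4.96 ± 1.58 FPKM in treated cells and 4.57 ± 0.887 FPKM in control cells.

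Complement genes other than C3 gave 1 call in 9 tested, or 11.1% against 24.4% of all features tested. C5AR1, the receptor for the C5a fragment, was at 4.29, 4.40 and 5.03 FPKM in treated cells, against 6.64, 6.74 and 8.69 FPKM in control cells (log2 fold change -0.67, limma, adjusted p = 0.0199).

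The list of immunoglobulin transport and iron or lipocalin handling, to which PIGR, LTF and LCN2 relate, had 5 of 10 tested genes called higher and 0 lower by limma, and 6 and 0 at an unadjusted p under 0.05. The calls were 50% higher and 0% lower, against 8.59% and 15.8% of all features tested. The median log2 fold change was 0.30, against -0.08 over all features tested. RAB3D, a GTPase of secretory vesicles, was at 10.04, 10.07 and 10.88 FPKM in treated cells, against 5.51, 4.11 and 5.22 FPKM in control cells (log2 fold change 1.06, limma, adjusted p = 0.0055). RAB25, a GTPase of apical recycling, was at 49.6 ± 2.41 FPKM in treated cells and 32.4 ± 0.985 FPKM in control cells (SD, n = 3 each; adjusted p = 0.0033, limma). FTH1, the ferritin heavy chain that stores iron in the cell, was at 2384.36, 1630.14 and 1737.13 FPKM in treated cells, against 768.02, 777.70 and 795.43 FPKM in control cells (log2 fold change 1.28, limma, adjusted p = 0.0051). VLDLR, a lipoprotein receptor that can take up clusterin, had a log2 fold change of 0.64 (adjusted p = 0.0075, limma), and FCGRT, the neonatal Fc receptor that carries IgG, had one of 0.35 (adjusted p = 0.0088, limma). All 5 were higher in treated cells, where PIGR was lower.

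Among 20 tested transcriptional regulators that control genes of this kind, 1 was called higher and 5 lower. These are 5% and 25%, against 8.59% and 15.8% of all features tested. NFKB1, a subunit of NF-kB, was at 14.3 ± 0.791 FPKM in treated cells and 22.5 ± 0.901 FPKM in control cells (SD, n = 3 each; log2 fold change -0.66, limma, adjusted p = 0.0038). NR3C1, the glucocorticoid receptor, was at 1.81 ± 0.216 FPKM in treated cells and 3.47 ± 0.3 FPKM in control cells (SD, n = 3 each; log2 fold change -0.91, limma, adjusted p = 0.0080). GRHL2, an epithelial factor, fell, with a log2 fold change of -0.45 (limma, adjusted p = 0.0111). KLF4, a factor of epithelial differentiation, rose, with one of 0.60 (limma, adjusted p = 0.0064).

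Of 16 tested receptors and cytokines that act upstream of mucosal defence, 1 was called higher and 3 lower. These are 6.25% and 18.75%, against 8.59% and 15.8% of all features tested. IL17RA, the receptor chain for IL-17A, was at 15.27, 14.41 and 16.02 FPKM in treated cells, against 5.75, 7.24 and 5.70 FPKM in control cells (log2 fold change 1.28, limma, adjusted p = 0.0027). IL6 was at 9.73, 6.06 and 9.43 FPKM in treated cells, against 22.74, 23.56 and 12.71 FPKM in control cells (log2 fold change -1.19, limma, adjusted p = 0.0401). Its signal-transducing receptor chain IL6ST fell, with a log2 fold change of -0.97 (limma, adjusted p = 0.0069). IFNGR2, a chain of the interferon gamma receptor, fell by 0.18 (adjusted p = 0.0400, limma) and lost its call whichever library was left out. EGFR, ADAM10, RAB3D, RAB25, FTH1, VLDLR, NFKB1, NR3C1 and IL17RA kept an adjusted p under 0.05 in every setting tried. When 1 library was left out, the call of C5AR1 was lost without treated replicate 1 or 2, that of ERBB2 without control replicate 1, that of SERPINB6 without treated replicate 1 or 3 or control replicate 1, and that of GALNT7 without treated replicate 1 or 3 or control replicate 1 or 3. GALNT1 lost it without treated replicate 3 or any control, C1GALT1C1 without any library but treated replicate 2, CTNNB1 without any but control replicate 2, and IL6 without any but control replicate 3. Calls were also lost with median-of-ratios size factors by GALNT1, IL6 and IFNGR2 (log2 fold change -0.10), with quantile normalization by GALNT1 and IL6, and with TPM by SERPINB6 (0.16) and WFDC3 (0.19).

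**Figure D4:**
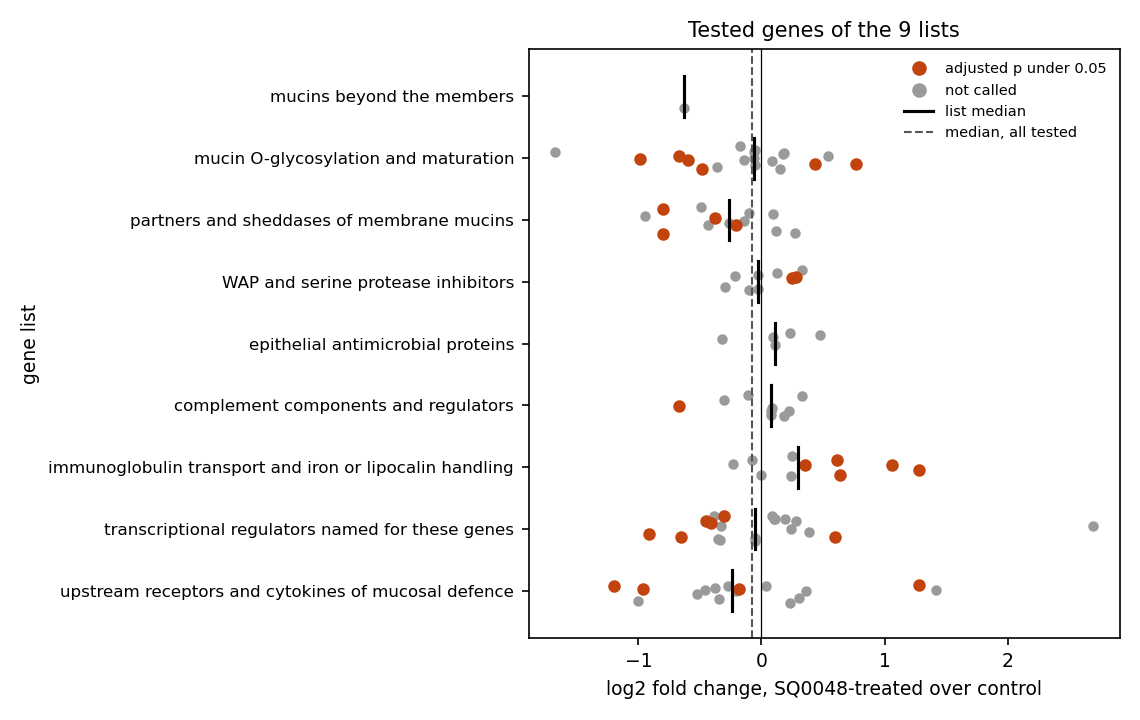
Log2 fold change, treated over control, of each tested gene in the 9 functional lists, with orange points at an adjusted p under 0.05, a bar at the median of each list and a dashed line at -0.08, the median of all features tested. The 5 called genes of immunoglobulin transport and iron or lipocalin handling all lie to the right, and the 4 called partners and sheddases of membrane mucins all lie to the left. Of all features tested, 8.59% were called higher and 15.8% lower.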

How the data were processed

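The authors deposited 1 table with a FPKM value, to 2 decimals, for each of 18014 features in 6 libraries. The build was ARS-UCD1.2, and StringTie 1.3.0, HISAT2 2.0 and Bowtie 0.12.2 appear in the submitters' processing notes, whereas the paper names Cufflinks and edgeR. Depth per value is unknown, since FPKM keeps no counts, so no count test was run. Groups came from the treatment given in the sample labels, and the sample titles matched columns to samples. The test was limma 3.58.1 under R 4.3.3 (trend, two-sided, condition only; tables were handled in pandas 2.3.3, Python 3.11.15) on log2(FPKM + 0.1), so fold changes of low genes are understated. An exact permutation test of 3 against 3 cannot go below p = 0.1. The procedure was checked on simulated data with independent features and changes larger than those of the 10 genes, so that check does not bear on their calls. From each list, up to 4 called genes with the largest change, or the 2 most abundant, were named; FCGRT was added after its value was seen. WFDC3 was named through a RefSeq accession (ARS-UCD2.0). The 10 genes and the lists were chosen with earlier results of these data known. Same-numbered samples did not deviate together (correlations -0.012 to 0.010), so numbers were not taken as pairs. No sequences are shown, and 1 epithelial marker is not reported here. Columns of values left unused numbered 0.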

Additional observations from a re-analysis of the deposited data

How the results depend on the processing

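The alternatives were 2 other pseudocounts (1 and 0.01), dropping the filter, raising it to 5 FPKM, TPM, median-of-ratios size factors, quantile normalization, no variance trend, the replicate number as a block, and leaving out each library. The sign turned for MUC1 with size factors (0.076), for SLPI with a pseudocount of 0.01 (-0.00188) and TPM (-0.084), and for CLU with quantile normalization (-0.011). Leaving out 1 library gave -0.079 to 0.085 for MUC1, -0.31 to 0.35 for SLPI, 0.44 to 0.60 for WFDC2, -0.49 to -0.34 for PIGR and 0.18 to 0.29 for CLU. WFDC2 lost its call with quantile normalization (0.36). PIGR lost it with pseudocounts of 1 (-0.31) and 0.01 (-0.43), no filter (-0.42), size factors (-0.34) and quantile normalization (-0.27). CLU gained one with the filter at 5 FPKM (0.23) and size factors (0.31). Of the genes read by symbol, the 2 called became 1 (WFDC2) with either pseudocount, no filter, the stricter filter or size factors, 0 with quantile normalization, and 0 to 1 without 1 library. Over all features, 1129 higher and 2072 lower calls became 550 to 954 and 1112 to 2012 without 1 library (1662 to 2966 together). The stricter filter tested 7053 features in place of 13144, with 862 called higher and 1348 lower. Changes of at least 2-fold (726) became 305 with a pseudocount of 1, and 225 among the 7053 features of the stricter filter. The 11 higher and 17 lower calls of the 9 lists became 17 and 11 with size factors, and without 1 library 8 to 11 and 8 to 14. The causes were not tested.

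With the replicate block, although the numbers did not pair the samples, PIGR (-0.42) lost its call, leaving 1 called gene read by symbol. KRT18 and KRT8 lost their calls there too (limma, adjusted p = 0.0647 for KRT18 and 0.0543 for KRT8). All features gave 320 higher and 527 lower calls (847 together) with the block, and the lists 5 and 6. ST3GAL1, GRHL2, KLF4, IL6ST and FCGRT lost their calls in this setting alone. Each gene had 1 row, so summing rows gave no other value.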
